A study of Drosophila melanogaster with 30 samples.

Results

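The part of the response of MB131 flies that the response of flies without CsChrimson does not match was measured in nuclear RNA of Drosophila melanogaster. CsChrimson is a channelrhodopsin, a cation channel opened by red light, and the flies without it show how much of a response to the light protocol is seen with no such channel. For each gene the quantity is an interaction on the log2 scale: the response of MB131 flies (activated over naive) minus the response of flies without CsChrimson (activated over naive). It is positive where MB131 flies responded more positively and negative where they responded more negatively. All 11457 genes of 17559 that passed a filter on low counts were tested, and 714 were called, that is, had an adjusted p under 0.05 in edgeR's quasi-likelihood test. The test uses 12 of the series' 30 libraries for the contrast, 3 in each of 4 groups.

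The activated MB131 flies had red light for 5 min and then rested for 10 min, and naive MB131 flies had neither. Flies without CsChrimson were sampled in the same 2 states. The labels give all groups the strain CS10, the same growth conditions under a light and dark cycle, and the mushroom body as tissue. Per the labels' protocols, nuclei carrying a FLAG tag were pulled from crosslinked heads and polyadenylated RNA was sequenced. The labels name neither the line of the flies without CsChrimson nor the cells in which CsChrimson or the tag was expressed, and give no sex, age or hour of collection. The interaction therefore compares MB131 with an unnamed line as well as flies with and without CsChrimson, and line and channel cannot be told apart. Nothing in the labels says that replicates came from separate flies, so p-values measure the spread between libraries, which may be technical. The 12 libraries held 10067936 to 12699467 counts (median 11368807). On the main axes of variation between them none stood apart from its group.

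The mushroom body is the fly's centre of olfactory memory. Its intrinsic neurons, the Kenyon cells, receive odour input through acetylcholine and a teaching signal through dopamine, whose receptors act on cyclic AMP made by the adenylyl cyclase rutabaga. Firing neurons switch on activity-regulated genes, of which Hr38 (a nuclear receptor), sr (stripe, an Egr family factor) and kay (the fly Fos) are common markers. All 21 Kenyon cell markers were detected above the filter in these libraries, and so were 26 of 27 muscle, 14 of 14 glia, 13 of 16 fat body and 32 of 32 phototransduction genes. The summed level of the Kenyon cell markers was 8786 to 9166 CPM (counts scaled to library size) in activated MB131 flies and 9578 to 9985 CPM in naive MB131 flies, against 10428 to 10751 CPM in activated and 9387 to 10316 CPM in naive flies without CsChrimson. RNA of tissues outside the mushroom body was thus present in the libraries, and its share in the value of a gene was not measured. In such bulk samples fewer nuclei of a type and less RNA per nucleus cannot be told apart.

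The interaction was positive in 309 genes (2.70% of those tested) and negative in 405 (3.53%), together 6.23%. Its median was 0.47 among the first and -0.40 among the second, and 41 and 53 of them exceeded a 2-fold difference. Most of these genes were called in just one of the genotypes. Of the 309, 132 rose in MB131 and were not called without CsChrimson, and 92 fell without CsChrimson and were not called in MB131. Another 25 rose in MB131 and fell without CsChrimson, 33 rose in both, 20 fell in both and 7 were called in neither. Of the 405, 159 fell in MB131 and were not called without CsChrimson, 105 rose without CsChrimson and were not called in MB131, and 53 fell in MB131 and rose without CsChrimson. A further 45 fell in both, 33 rose in both and 10 were called in neither. A call in one genotype alone only describes the 2 responses. The interaction tests their difference. Naive MB131 flies already differed from naive flies without CsChrimson in part of these genes. Of the 309, 136 (44.0%) were lower and 21 (6.8%) higher in naive MB131 flies, where 6.43% and 7.29% of all genes were. Of the 405, 150 (37.0%) were higher and 28 (6.91%) lower. This naive comparison shares libraries with the interaction and is given beside it only. Across the 11457 genes the 2 responses, which share no library, had a Pearson r of 0.294 (genes are not independent replicates).

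**Figure D1:**
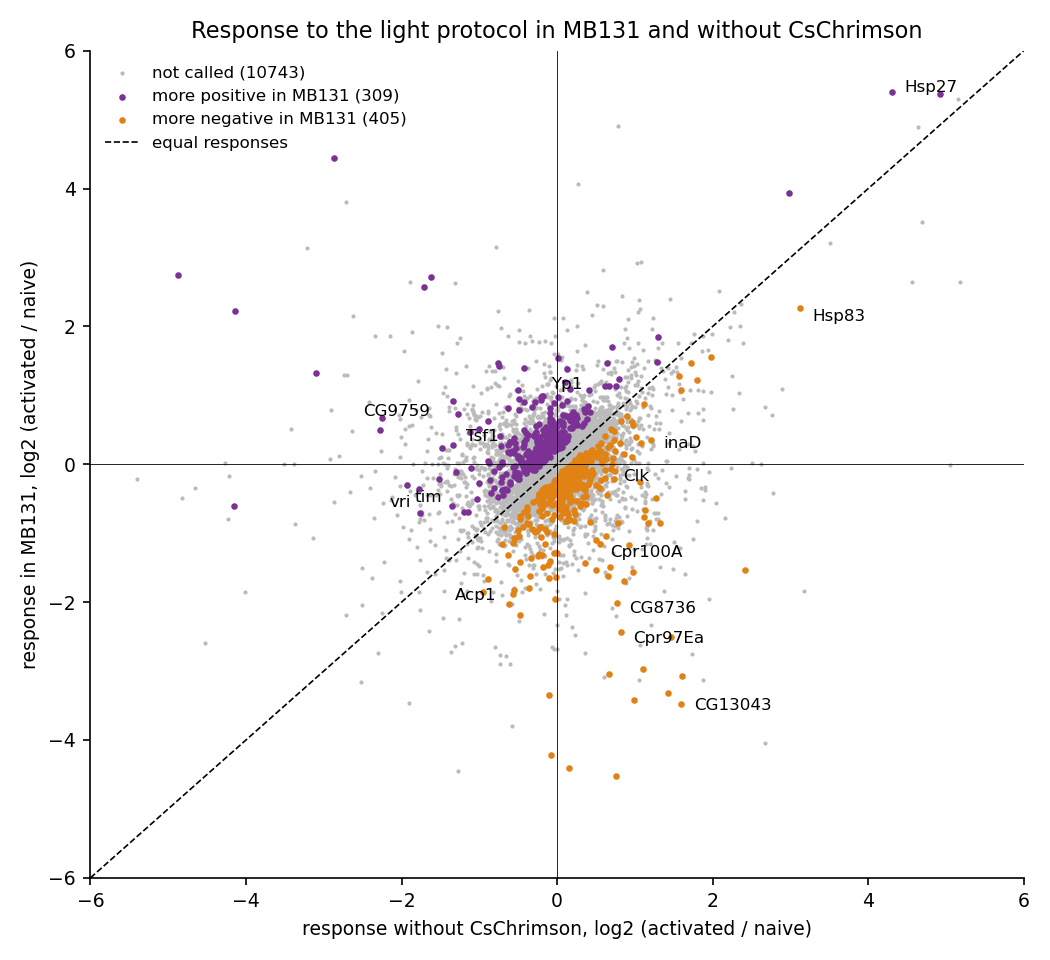
Each point is a tested gene; the vertical axis is its log2 response (activated over naive) in MB131 flies and the horizontal axis that in flies without CsChrimson, with the dashed line where both are equal. Of the 714 called genes, the 309 with a positive interaction lie above the line and the 405 with a negative one below it; 9 genes, 1 of them called, lie outside the axes.

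Of the 14 activity-regulated genes tested none was called. With 6.23% of all genes called, a list of this size holds too few genes for that count to be read as a result. Their median interaction was 0.02, beside -0.00 over all genes. Hr38 (2L from 20683462 to 20714588) stood at 20.5, 20.7 and 17.4 CPM in activated MB131 flies and at 16, 14.8 and 15.3 CPM in naive ones. Without CsChrimson it stood at 17, 14.5 and 15.8 CPM in activated flies and at 12.4, 12.2 and 12.2 CPM in naive ones. Activated libraries lay above naive ones of the same genotype in both, by 0.34 ± 0.14 in MB131 (log2 ± SE; edgeR adjusted p = 0.0687) and 0.36 ± 0.15 without CsChrimson (adjusted p = 0.0764). The interaction of Hr38 was -0.02 ± 0.21, with a 95% interval from -0.42 to 0.39 (adjusted p = 0.987). For sr the MB131 response was 0.57 ± 0.15 and passed (adjusted p = 0.00264), the response without CsChrimson was 0.10 ± 0.15 (adjusted p = 0.722), and their difference of 0.47 ± 0.22 did not pass (interval 0.05 to 0.89, adjusted p = 0.227). The CPM of sr were 22.1, 14 and 18.9 in activated and 12.4, 13.3 and 11.4 in naive MB131 flies, and 18.3, 19.4 and 14.6 in activated and 14.1, 18.6 and 16.3 in naive flies without CsChrimson, where the groups overlapped. The kay interaction was 0.15 ± 0.07 (interval 0.01 to 0.29, adjusted p = 0.248), with 0.27 ± 0.05 in MB131 (adjusted p = 8.19e-06) and 0.12 ± 0.05 without CsChrimson (adjusted p = 0.0985). The interval of Hr38 spans 0, and those of sr and kay lie above 0 before adjustment. Kdm4B, the demethylase the series is about, stood at 0.175 to 1.59 CPM in the 12 libraries, and its interaction of 0.71 ± 0.90 (adjusted p = 0.766) is too imprecise to read. It shares 13534 bases with CG17724 on the same strand, and how reads in both genes were counted is not given, so its level is uncertain. None of the 8 histone lysine demethylases and none of the 6 tested genes of H3K9 methylation and HP1 was called. These lists too are too small for that to be read as a result.

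Most heat shock genes, many of which encode chaperones, rose in both genotypes, but not by the same amounts. Of 23 tested, 21 rose in MB131 (12.7% of all genes rose) and 21 without CsChrimson (11.1%). The small heat shock gene l(2)efl fell without CsChrimson (-0.22), with 0.12 in MB131, and its positive interaction (0.34 ± 0.10) was called. Against the 2.70% and 3.53% of all genes, 8 of the 23 had a positive interaction and 3 a negative one, and their median interaction was 0.14. The positive calls included small heat shock proteins and Hsp70 genes. Hsp27 (3L from 9384063 to 9385694) stood at 266, 262 and 261 CPM in activated and 5.93, 5.71 and 6.96 CPM in naive MB131 flies, against 90.1, 96.1 and 106 CPM in activated and 6.68, 3.33 and 4.46 CPM in naive flies without CsChrimson. The naive groups overlapped and the activated MB131 libraries were highest, with an interaction of 1.10 ± 0.19 (edgeR adjusted p = 2.35e-05). Its neighbour Hsp23 had 0.96 ± 0.13, Hsp70Bb 0.83 ± 0.13 and stv, a co-chaperone of Hsp70, 0.56 ± 0.07. Of the 7 tested Hsp70 family genes 2 were called, both positive, while 4 estimates lay above 0 and 3 below. Those below 0 were Hsp70Aa (-0.82 ± 0.65), Hsp70Ab (-0.86 ± 0.57) and Hsp70Ba (-1.17 ± 0.70), none of them called. Of those above 0, Hsp70Bbb (1.88 ± 0.72) was not called either. Copies of Hsp70 are near-identical, so the counts of any single copy are uncertain. The 7 genes summed to 2228 to 2263 CPM in activated and 125 to 137 CPM in naive MB131 flies. Without CsChrimson they summed to 1036 to 1066 CPM in activated and 93.2 to 135 CPM in naive flies. The sums were not tested, and how reads matching several copies were counted is not given. Hsromega, a noncoding RNA that gathers RNA-binding proteins after heat shock, was just past the threshold at 0.19 ± 0.06 (adjusted p = 0.0242). Its call was lost without the second activated or the third naive MB131 library and without the second activated or the third naive library lacking CsChrimson (adjusted p = 0.0539 to 0.179).

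The negative calls were the fly Hsp90 gene and 2 co-chaperone genes. Hsp83, which encodes Hsp90, stood at 5210, 5284 and 5418 CPM in activated and 1073, 1136 and 1098 CPM in naive MB131 flies. Without CsChrimson it stood at 4412, 4471 and 4421 CPM in activated and at 510, 515 and 507 CPM in naive flies. Activated MB131 flies held the most and naive flies without CsChrimson the least, so that a response of 2.27 ± 0.04 in MB131 stood beside 3.12 ± 0.04 without CsChrimson and the interaction was -0.85 ± 0.05 (edgeR adjusted p = 2.86e-28). Hsc70Cb, an Hsp110 exchange factor, had -0.25 ± 0.07 (adjusted p = 0.00581). The abundant chaperones DnaJ-1 (-0.07 ± 0.06), Droj2 (-0.15 ± 0.06) and Hsp68 (0.14 ± 0.19) were not called (adjusted p = 0.646, 0.116 and 0.795), although Droj2 passed with DESeq2 (adjusted p = 0.0414). For DnaJ-1 the interval from -0.18 to 0.05 allows little difference between responses of 2.21 and 2.28. None of the 17 endoplasmic reticulum stress genes and none of the 38 proteasome genes was called. With 6.23% of all genes called, nothing is read from these counts.

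**Figure D2:**
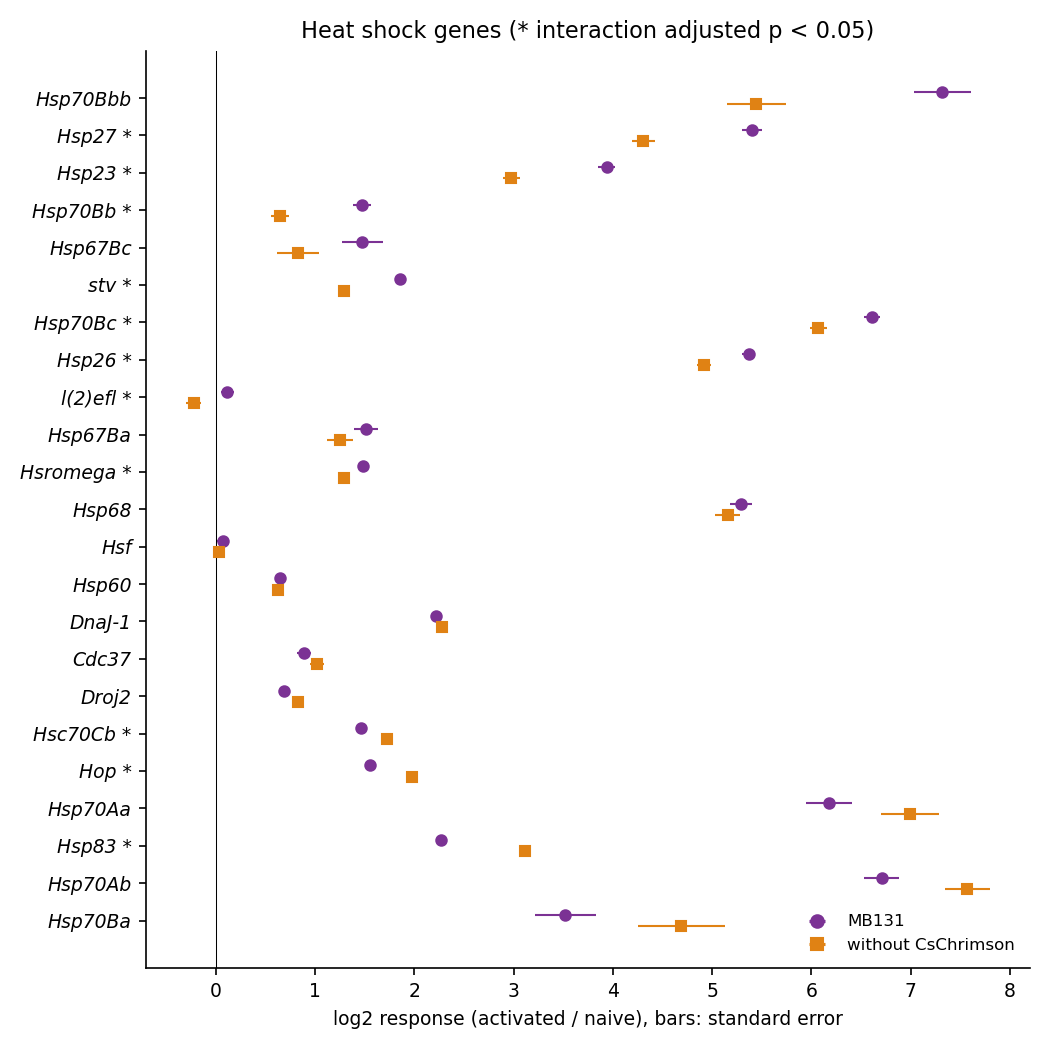
Log2 responses (activated over naive) of the 23 tested heat shock genes in MB131 flies (circles) and flies without CsChrimson (squares), with standard errors, ordered by interaction. Small heat shock genes such as Hsp27 (interaction 1.10) lie near the top with the larger response in MB131, and Hsp83 (interaction -0.85) near the bottom with the larger response without CsChrimson.

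Kenyon cell markers responded more negatively in MB131. Of 21 tested, 14 were called on the negative side and 0 on the positive, against 3.53% and 2.70% of all genes, and their median interaction was -0.31. The median of their responses was -0.15 in MB131, where 12 fell (background 11.8%) and 1 rose, and 0.16 without CsChrimson, where 12 rose and 2 fell (background 9.98%). The difference was largest for prt (portabella, a vesicular transporter-like protein of the mushroom body; 3R from 23696372 to 23699027). It stood at 112, 107 and 112 CPM in activated and 164, 163 and 163 CPM in naive MB131 flies, against 139, 152 and 161 CPM in activated and 166, 130 and 157 CPM in naive flies without CsChrimson. The activated MB131 libraries were the lowest of the 12 and the other groups lay between 130 and 166 CPM, with an interaction of -0.56 ± 0.09 (edgeR adjusted p = 6.29e-06). The neuropeptide precursor sNPF stood at 455, 443 and 434 CPM in activated and 508, 545 and 531 CPM in naive MB131 flies, and at 555, 549 and 575 CPM in activated and 507, 475 and 489 CPM in naive flies without CsChrimson. It fell in MB131 and rose without CsChrimson, with an interaction of -0.44 ± 0.06 (adjusted p = 2.63e-08).

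Several dopamine and cyclic AMP genes that carry memory signals in Kenyon cells were among those called. Of 23 amine receptor and synthesis genes 7 had a negative interaction and 0 a positive one, where 3.53% and 2.70% of all genes did. Both D1-like dopamine receptors fell in MB131 and rose without CsChrimson, Dop1R2 with an interaction of -0.48 ± 0.09 and Dop1R1 with -0.47 ± 0.08 (edgeR adjusted p = 3.97e-05 and 2.46e-05). Dop1R1 stood at 145, 163 and 155 CPM in activated and 180, 173 and 182 CPM in naive MB131 flies, against 164, 163 and 186 CPM in activated and 149, 129 and 149 CPM in naive flies without CsChrimson. Dop2R, a D2-like receptor, had -0.41 ± 0.10, 5-HT1A, a serotonin receptor, -0.40 ± 0.10, and DAT, which takes dopamine back up, -0.53 ± 0.13. The dopamine receptor DopEcR (0.05 ± 0.06) was not called. Of the 24 genes of cyclic AMP, calcium and CREB signalling 5 were called, all negative, against the same 3.53%. Their median interaction was -0.05, and 10 of the 24 lay above 0. Cam (calmodulin) had -0.33 ± 0.05, Pka-C1 and Pka-R2 (a catalytic and a regulatory subunit of protein kinase A) -0.32 ± 0.07 and -0.31 ± 0.06, and dnc (dunce, a cyclic AMP phosphodiesterase) -0.25 ± 0.06. The adenylyl cyclase rut had -0.39 ± 0.10 (adjusted p = 0.0223), a call lost without the third library of any of the 4 groups (adjusted p = 0.0533 to 0.0671). The list of amine genes and that of cyclic AMP genes share members with the Kenyon cell markers and are no separate evidence. Of 24 neurotransmitter receptors 6 were negative (background 3.53%) and 0 positive, among them the GABA receptor Rdl (-0.38 ± 0.06) and the nicotinic subunit nAChRalpha6 (-0.35 ± 0.05).

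The counts in other neuronal lists are small, and nothing is read from them beside the 6.23% of all genes called. Of 29 presynaptic release genes 1 was positive and 2 negative, of 17 potassium channel genes 0 and 1, of 12 sodium and calcium channel genes 0 and 1, and of 38 neuropeptide genes 1 and 3. Among these, the calls of the presynaptic gene Sap47 and the potassium channel Elk, named after their values were seen, were lost without any of 9 and 8 libraries left out singly (edgeR adjusted p = 0.0526 to 0.107 and 0.0575 to 0.135). Muscle markers had 2 positive and 3 negative of 26, with a median of -0.02, and glia markers 3 and 3 of 14, with a median of 0.01. The calls of the muscle genes Mlc2, sls and bt, named after their values were seen, were lost without any of 9, 7 and 4 libraries. The summed muscle markers were 11504 to 11641 CPM in activated and 13037 to 13911 CPM in naive MB131 flies, against 8640 to 9057 CPM in activated and 9210 to 10150 CPM in naive flies without CsChrimson. Summed phototransduction genes were 31741 to 31999 CPM in activated and 21830 to 22400 CPM in naive MB131 flies, against 33712 to 34187 CPM in activated and 21260 to 21707 CPM in naive flies without CsChrimson. These sums moved with the groups, and their part in the values of the Kenyon cell markers was not tested.

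**Figure D3:**
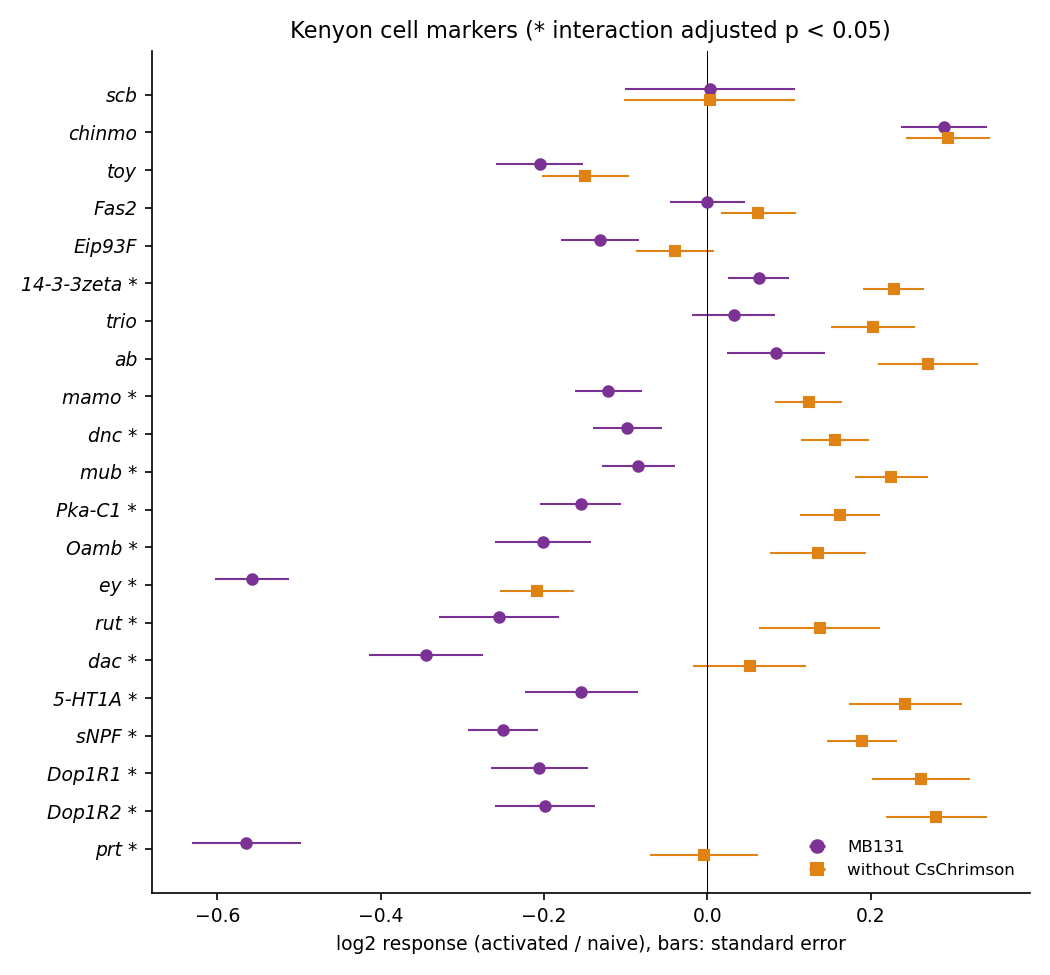
Log2 responses (activated over naive) of the 21 Kenyon cell markers in MB131 flies (circles) and flies without CsChrimson (squares), with standard errors, ordered by interaction. The MB131 value lies left of the other for the 14 called markers, by 0.56 for prt.

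Of 32 phototransduction genes 23 rose and 3 fell in MB131, where 12.7% and 11.8% of all genes did, and 26 rose and 1 fell without CsChrimson, where 11.1% and 9.98% did. In 12 of the 32 the interaction was negative and in 0 positive, against 3.53% and 2.70% of all genes. The median interaction was -0.10. One gene stood well beyond the rest. inaD, the scaffold that holds the phospholipase, the TRP channel and the eye's protein kinase C together (2R from 22855688 to 22858794), stood at 357, 351 and 355 CPM in activated and 287, 274 and 269 CPM in naive MB131 flies. Without CsChrimson it stood at 582, 579 and 621 CPM in activated and at 252, 264 and 254 CPM in naive flies. The activated flies without CsChrimson were highest by far, and the interaction was -0.85 ± 0.06 (edgeR adjusted p = 7.34e-21). Next were laza, a phospholipid phosphatase (-0.45 ± 0.08), inaC, the eye's protein kinase C (-0.35 ± 0.07), ninaB, which makes the chromophore from carotenoids (-0.26 ± 0.06), and Ggamma30A, a G protein subunit of photoreceptors (-0.25 ± 0.05). inaD, inaC and Ggamma30A rose in both genotypes, laza fell in MB131 and was not called without CsChrimson, and ninaB fell in both.

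Clock genes were called on both sides, 5 of 12 positive and 2 negative, against 2.70% and 3.53% of all genes. tim (timeless, a repressor of the clock; 2L from 3493986 to 3508119) stood at 717, 709 and 707 CPM in activated and 1032, 1089 and 1121 CPM in naive MB131 flies. Without CsChrimson it stood at 848, 828 and 817 CPM in activated and at 2296, 1959 and 2109 CPM in naive flies. The naive libraries without CsChrimson held the most and naive MB131 libraries came next, while all activated libraries lay between 707 and 848 CPM. The responses of -0.60 ± 0.04 in MB131 and -1.35 ± 0.04 without CsChrimson gave an interaction of 0.75 ± 0.06 (edgeR adjusted p = 1.78e-19). vri, a repressor of Clk, had 1.05 ± 0.08, Pdp1, which activates Clk, 0.71 ± 0.06, and to (takeout), a clock output gene of feeding, 0.51 ± 0.08. Clk itself stood at 309, 308 and 293 CPM in activated and 298, 288 and 323 CPM in naive MB131 flies, against 322, 311 and 345 CPM in activated and 215, 188 and 195 CPM in naive flies without CsChrimson. The naive flies without CsChrimson were lowest and the other groups lay between 288 and 345 CPM, for an interaction of -0.71 ± 0.07 (adjusted p = 1.31e-12). The other called clock genes, named here after their values were seen, were per (0.43 ± 0.10) and cry, the blue-light receptor (-0.38 ± 0.07). Levels of tim, vri, per and Clk cycle over the day in flies, and no hour of collection is given for any group, so its part in these values was not tested.

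Yolk protein genes had positive interactions of near-equal size. Yp1, Yp2 and Yp3 encode the yolk proteins that the female fat body and ovary make, and all 3 rose in MB131 and were called (1.18 ± 0.06, 1.17 ± 0.09 and 1.19 ± 0.07; edgeR adjusted p = 7.15e-18, 3.62e-09 and 1.60e-13). Yp1 (X from 10053811 to 10055498) stood at 9088, 9590 and 9733 CPM in activated and 4865, 4788 and 4847 CPM in naive MB131 flies, against 4854, 4381 and 4213 CPM in activated and 4723, 5758 and 5097 CPM in naive flies without CsChrimson. All activated MB131 libraries lay far above those of the other groups, which overlapped. The antisense gene CR45601, which had the smallest p on the positive side (1.14 ± 0.06, adjusted p = 2.60e-26), lies wholly inside Yp1 on the other strand and shares 875 bases with it. No setting for strand is given in the sources used here, so its reads and those of Yp1 cannot be told apart. roX1, a noncoding RNA of the complex that doubles transcription of the male X (X from 3857230 to 3862697), moved the other way. It stood at 3623, 3420 and 3423 CPM in activated and 4688, 4452 and 4726 CPM in naive MB131 flies, and at 5133, 5211 and 5126 CPM in activated and 4899, 4668 and 4871 CPM in naive flies without CsChrimson. Activated MB131 flies were lowest, and the interaction was -0.51 ± 0.05 (adjusted p = 4.06e-13). It was the single call among 14 genes of sex determination and dosage compensation. Nothing is read from that count beside the 6.23% of all genes called. No label gives the sex of the flies, and a difference in the share of females was not tested. Of the 1871 tested genes on the X, 2.67% were positive and 3.05% negative.

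**Figure D4:**
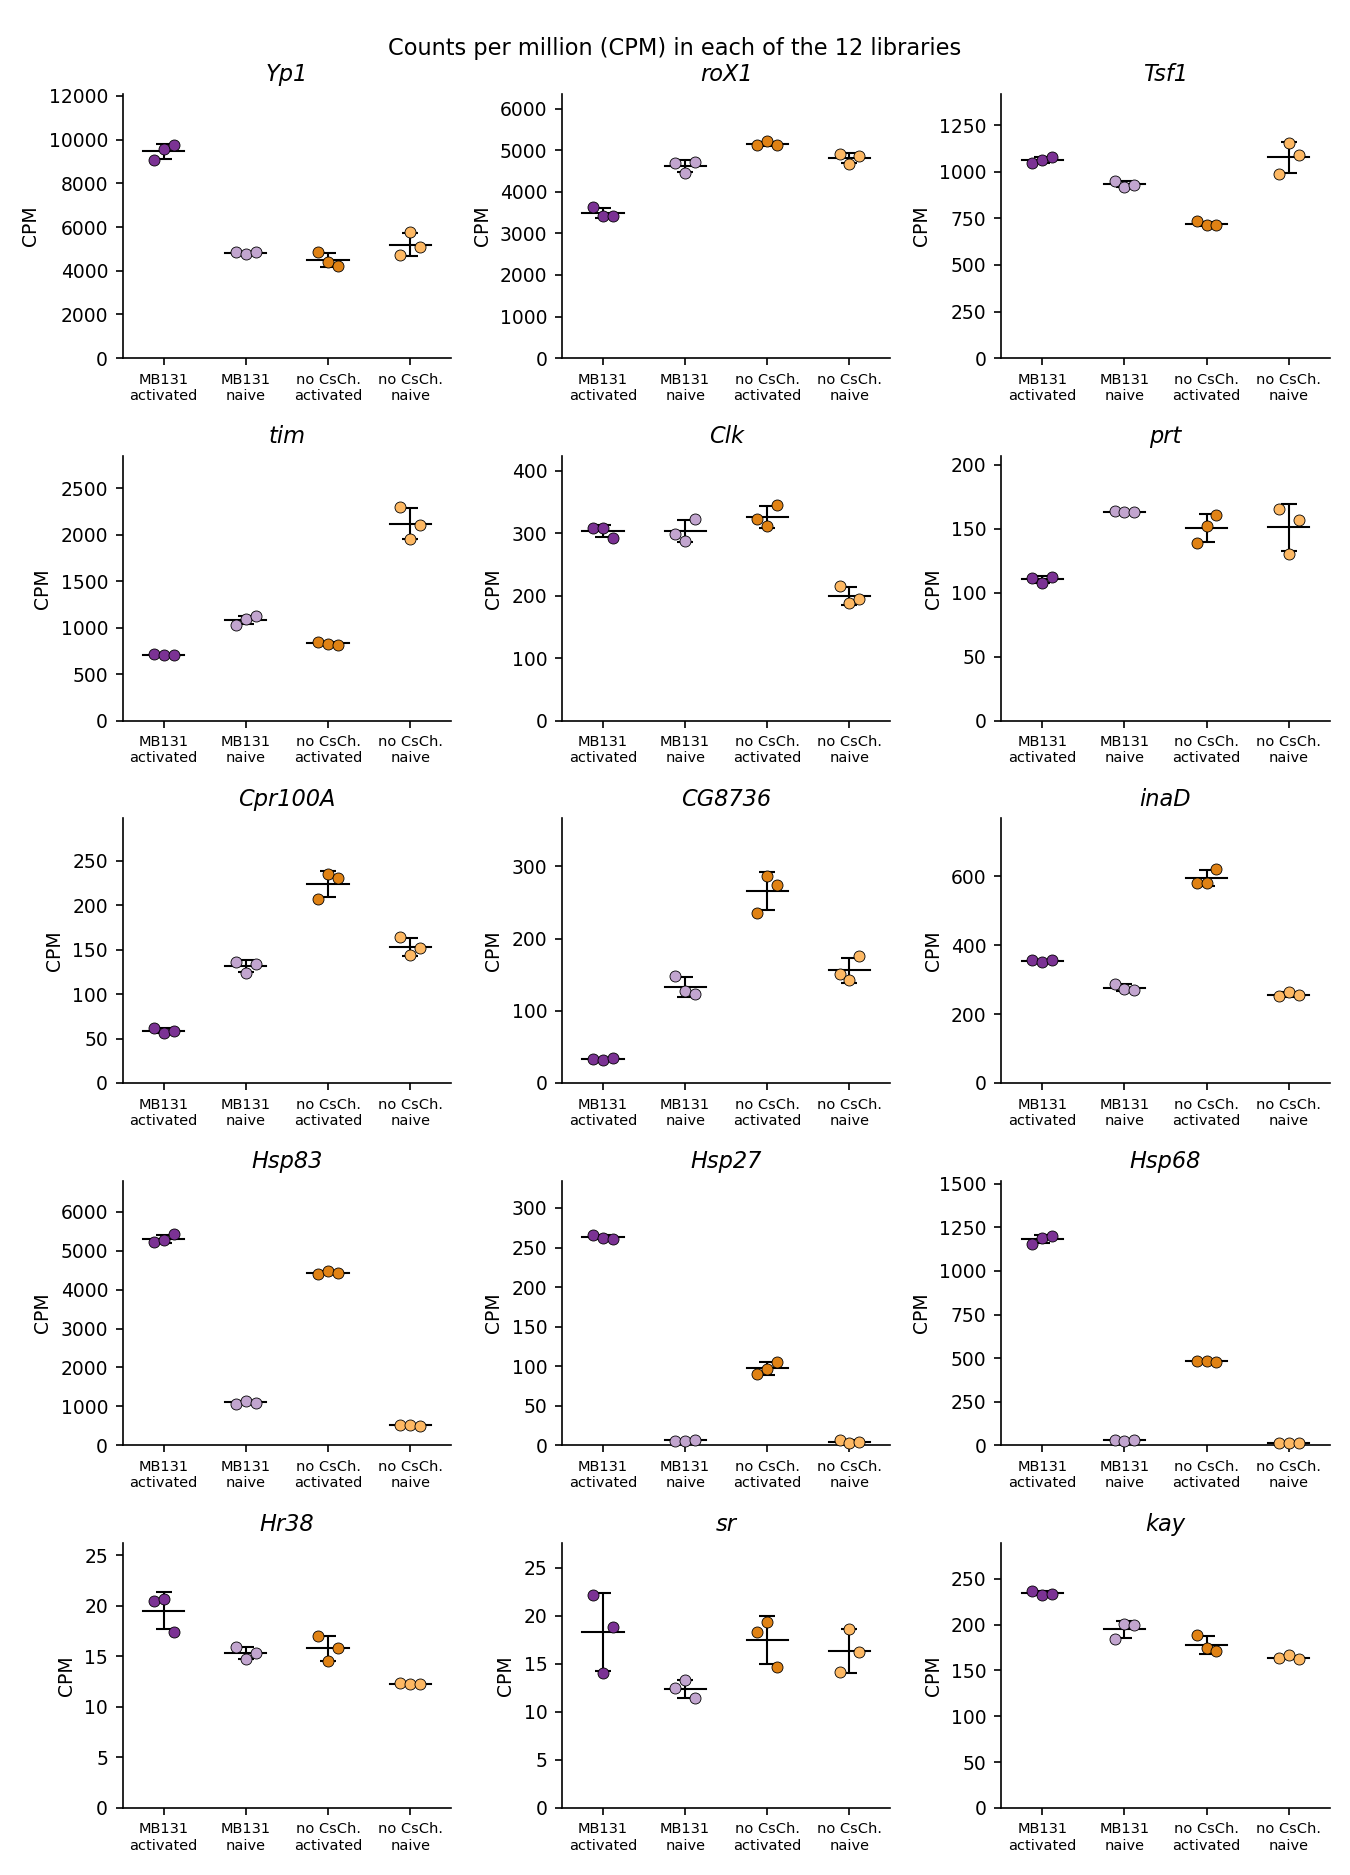
Scaled counts (CPM, from 0) of 15 genes in each of the 12 libraries, in the order activated MB131, naive MB131, activated without CsChrimson (no CsCh.) and naive without CsChrimson; points are libraries, lines and bars the mean and SD of 3. Yp1 is high (9088 to 9733 CPM) and roX1, prt, Cpr100A and CG8736 are low in activated MB131 flies, tim is high and Clk low in naive flies without CsChrimson, and Hr38 lies higher in activated than in naive flies in both genotypes.

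Fat body markers were called mostly on the positive side, 7 of 13 positive and 1 negative (FASN1, a fatty acid synthase that the files call CG3523, named after its value was seen, at -0.43 ± 0.06), against 2.70% and 3.53% of all genes, with a median interaction of 0.33. Their summed level was 5741 to 5962 CPM in activated and 4864 to 5013 CPM in naive MB131 flies, against 5039 to 5748 CPM in activated and 4838 to 5556 CPM in naive flies without CsChrimson. Gnmt, a glycine methyltransferase that uses up S-adenosylmethionine, had 22.7, 24.2 and 29.1 CPM in activated and 13.4, 15.8 and 14 CPM in naive MB131 flies. Without CsChrimson it had 13.9, 10.4 and 13.6 CPM in activated and 14.3, 24.2 and 20.4 CPM in naive flies, for an interaction of 1.45 ± 0.20 (edgeR adjusted p = 1.16e-08). Tsf1, the iron carrier transferrin, had 0.77 ± 0.06, with responses of 0.19 ± 0.04 in MB131 and -0.58 ± 0.04 without CsChrimson. Lsp1beta, a serum storage protein, had 0.91 ± 0.19 and Mtp, a lipoprotein assembly factor, 0.59 ± 0.13. Sodh-1, a sorbitol dehydrogenase, had 0.93 ± 0.12. In MB131 9 of the 13 fat body markers rose and 1 fell (median response 0.35), and without CsChrimson 5 rose and 3 fell (median 0.08). Of the 3 yolk protein genes, 0 rose and 2 fell without CsChrimson (median -0.20). The part of fat body RNA in the values of either list was not tested.

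Several cuticle genes had large negative interactions. Of 55 tested cuticle protein genes 11 were negative and 0 positive, against 3.53% and 2.70% of all genes, with a median of -0.15, and the other 44 were not called. Cpr100A, a chitin-binding cuticle protein (3R from 30867521 to 30869184), stood at 61.3, 55.7 and 59.0 CPM in activated and 137, 123 and 134 CPM in naive MB131 flies. Without CsChrimson it stood at 207, 235 and 230 CPM in activated and at 164, 144 and 151 CPM in naive flies. Activated MB131 flies were lowest and activated flies without CsChrimson highest, so the responses of -1.16 ± 0.07 and 0.55 ± 0.06 had opposite signs and the interaction was -1.71 ± 0.09 (edgeR adjusted p = 1.25e-29). The lowest and the highest group were the same for Cpr97Ea (-3.26 ± 0.26), Ccp84Ab (-2.10 ± 0.22) and Ccp84Ag (-1.63 ± 0.20), each of which fell in MB131 and rose without CsChrimson. Cpr62Bc (-1.93 ± 0.21) fell in MB131 and was not called without CsChrimson (-0.02 ± 0.13). Acp1, an adult cuticle protein outside that list, fell in both genotypes, with responses of -1.88 in MB131 and -0.57 without CsChrimson, for an interaction of -1.31 ± 0.09. verm, a chitin deacetylase, had -0.94 ± 0.08, and e (ebony), which joins dopamine to beta-alanine in cuticle tanning and in glia, -0.68 ± 0.09. Jhe, the esterase that breaks down juvenile hormone, stood at 16.1, 19.3 and 16.5 CPM in activated and 48.3, 52.8 and 44.7 CPM in naive MB131 flies, against 19.8, 23.5 and 21.7 CPM in activated and 14.5, 12.7 and 13.2 CPM in naive flies without CsChrimson. Here the naive MB131 flies were the highest group, and the interaction was -2.17 ± 0.17 (adjusted p = 5.84e-19).

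Several large interactions were in genes that the files give no descriptive name. CG8736 (2R from 8594031 to 8595001) had the smallest p of all genes. It stood at 32.7, 31.7 and 34.1 CPM in activated and 148, 127 and 123 CPM in naive MB131 flies, against 236, 287 and 274 CPM in activated and 151, 142 and 175 CPM in naive flies without CsChrimson. The naive groups overlapped and the activated groups lay on opposite sides of them, for an interaction of -2.78 ± 0.11 (edgeR adjusted p = 4.19e-31). Larger still but at lower levels were CG13043 (-5.07 ± 0.35), which had 0.970, 0.733 and 1.19 CPM in activated MB131 flies against 27.8, 43.7 and 34.6 CPM in activated flies without CsChrimson, and CG13044 (-4.56 ± 0.56). CG13044 shares 635 bases with the antisense gene CR45890 (-3.25 ± 0.47), and the reads of the pair cannot be told apart. CG5172 had -4.14 ± 0.31, CG13722 -1.60 ± 0.11 and Vajk3 (CG16884 in the files) -1.55 ± 0.13; Vajk3 lies inside Ance-3 on the opposite strand. CG8147 had -2.54 ± 0.24. On the positive side, CG9759 stood at 39.1, 38.9 and 34.4 CPM in activated and 24.6, 33.9 and 21.4 CPM in naive MB131 flies, against 13.4, 12.4 and 17.1 CPM in activated and 57.8, 75.5 and 75.5 CPM in naive flies without CsChrimson. Its groups did not overlap, and the interaction was 2.77 ± 0.24 (adjusted p = 2.19e-08). CG34166 had 1.26 ± 0.11, Mco1, a multicopper oxidase, 1.42 ± 0.20, and retinin, a protein of the corneal lens surface, 0.53 ± 0.05.

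**Figure D5:**
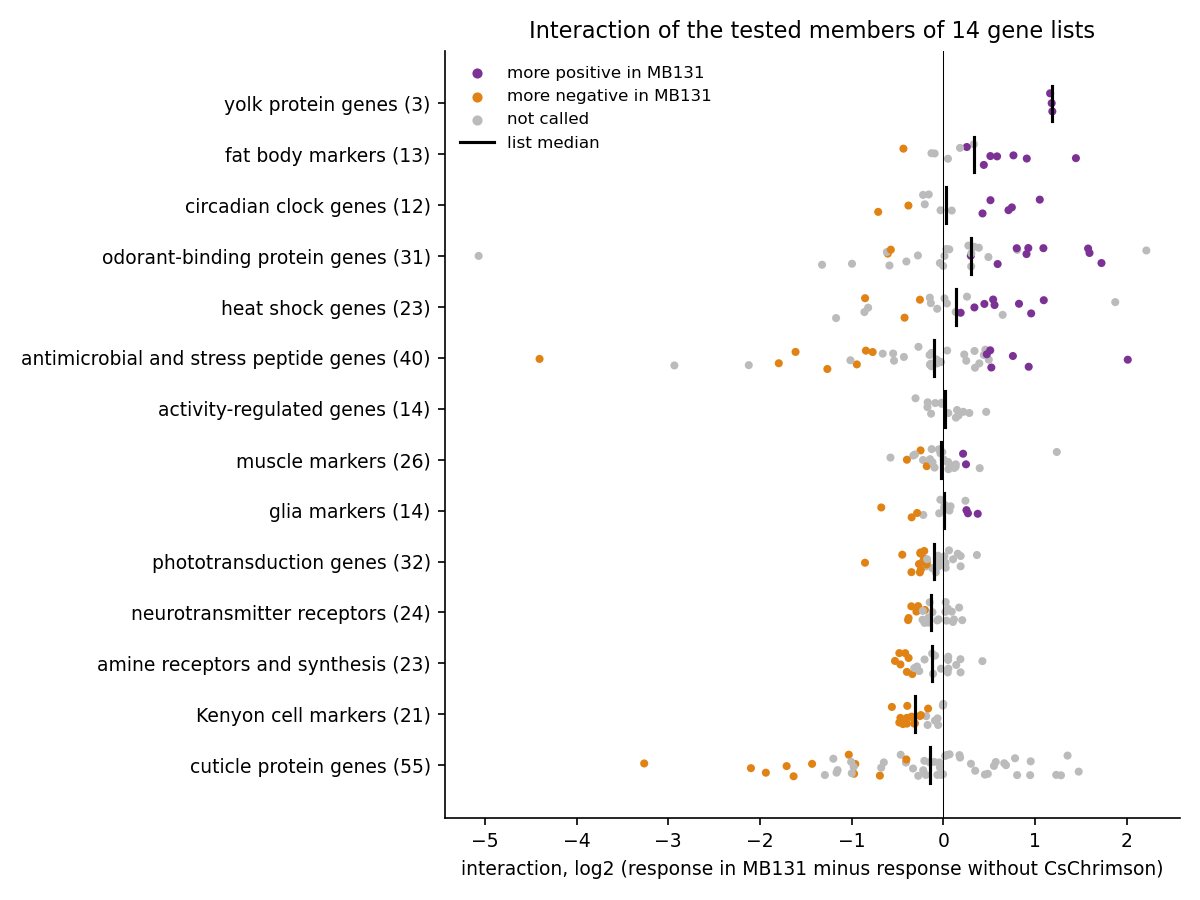
Interaction on the log2 scale of each tested member (points) of 14 gene lists, with the number of members in brackets and a bar at the list median. Yolk protein genes (median 1.18) and fat body markers (0.33) lie to the right, Kenyon cell markers (-0.31) to the left, and activity-regulated genes (0.02) hold no called member.

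Odorant-binding and immune genes were called on both sides. Of 31 odorant-binding protein genes 9 were positive and 2 negative, against 2.70% and 3.53% of all genes, with a median of 0.30. The positive count was 6 without the second naive library lacking CsChrimson. Obp56d, by far the most abundant of those named, stood at 935, 907 and 957 CPM in activated and 716, 707 and 653 CPM in naive MB131 flies, against 656, 643 and 622 CPM in activated and 785, 841 and 859 CPM in naive flies without CsChrimson. It rose in MB131 and fell without CsChrimson, with an interaction of 0.80 ± 0.06 (edgeR adjusted p = 6.95e-21). Obp56a (1.60 ± 0.29) and Obp56h (1.58 ± 0.38), of the same cluster on 2R, had larger interactions at levels under 10 CPM. Among 40 antimicrobial and stress peptide genes 6 were positive and 7 negative, beside the same shares of all genes. Def (defensin, which lies inside magu on the other strand) had 2.01 ± 0.33 at levels of 1.93 to 9.96 CPM. Dro (drosocin) had -1.79 ± 0.33 and Dpt (a diptericin) -1.61 ± 0.33. PGRP-SC2, an amidase that degrades peptidoglycan, had the largest change of the list (-4.40 ± 1.02), at 0.0793 to 4.65 CPM. Drsl5, a drosomycin relative, had -1.0 ± 0.09 and pirk, an inhibitor of the Imd pathway, 1.31 ± 0.19.

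Genes of basal metabolism had few calls, beside the 6.23% of all genes. None of 15 mitochondrially encoded genes, 2 of 71 nuclear genes of oxidative phosphorylation (both negative), 1 of 84 ribosomal protein genes (positive) and 1 of 46 genes of oxidative stress and detoxification (negative) were called. Of the 84 ribosomal protein genes 46 rose in MB131 (12.7% of all genes rose) and 17 without CsChrimson (11.1%), and 0 fell in either. Their interactions lay above 0 in 64 and below in 20, with a median of 0.06. The ribosomal call, RpLP0, was lost without any of 7 libraries left out singly, and the oxidative phosphorylation calls, CoVa and CG9172, without any of 5 and 4 (edgeR adjusted p = 0.0540 to 0.174 over the 3 genes, which were named after their values were seen). The call in detoxification was GstZ2, a glutathione S-transferase, with -0.50 ± 0.12 (edgeR adjusted p = 0.0025).

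MB131 flies with RNAi against Kdm4B carry the same line name, and their libraries are no part of the interaction. In their own response (activated over naive), 154 of the 309 genes with a positive interaction rose (49.8%) and 44 fell (14.2%), where 13.8% of all tested genes rose and 13.0% fell. Of the 405 with a negative interaction 73 rose (18.0%) and 169 fell (41.7%). For the yolk genes the response under RNAi was 1.18 for Yp1, 1.27 for Yp2 and 1.43 for Yp3, and for roX1 it was -0.24. Of the 55 cuticle protein genes 20 fell and 3 rose under RNAi, with a median of -0.39. The responses were -1.61 for Cpr100A, -2.65 for Cpr97Ea and -0.44 for Ccp84Ab, and outside that list -2.55 for CG8736 and -2.60 for Jhe. Of the 21 Kenyon cell markers 3 fell and 4 rose under RNAi, with a median of 0.05, and sNPF rose (0.19, edgeR adjusted p = 3.03e-04). The clock genes tim and Pdp1 had responses of 0.17 and 0.30 under RNAi, beside -0.60 and -0.10 in MB131. Whether these responses differ between MB131 flies with and without RNAi is another contrast, not given here.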

How the data were processed

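Nuclear RNA-seq of 30 libraries was analysed from the deposited table of whole-number read counts per gene. The authors aligned to dm6 with STAR and made the counts with HTSeq, per the submitters' processing notes, which give no versions; the sources used here do not give strand or multi-mapping settings. The authors' own table of comparisons was not used. All 30 libraries, in 10 groups of 3, entered a single edgeR 4.0.16 model (R 4.3.3) with TMM scaling, after filterByExpr (minimum count 10, minimum total 15). The interaction, the responses and the naive groups against each other were tested with the quasi-likelihood F test, for change in either direction. P-values were Benjamini-Hochberg adjusted over 11457 genes, with a threshold of 0.05. Values are log2 ± SE, with 95% intervals of 1.96 SE, and levels are TMM-scaled CPM. The typical biological coefficient of variation was 6.32%. The script was tested on simulated data. Genes were matched by FlyBase identifier (17253 of 17559 found), and positions are dm6, from Ensembl's annotation of that assembly.

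The members and the 32 gene lists were chosen with earlier results of these data known. Genes named were the 12 with the smallest p and the 10 with the largest change (at least 5 CPM) per direction, up to 5 per list, Hr38, sr, kay, Kdm4B and 6 abundant heat shock genes. Not all of these are named in the text. The alternatives tried were relative log expression factors, no TMM factors, no low-count filter, a minimum count of 50, DESeq2 1.42.0, the 12 libraries alone, a replicate block and leaving out each library. Promoter motifs were not analysed here.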

Additional observations from a re-analysis of the deposited data

Results flagged for a closer look

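The whole comparison is one of responses that differ between 2 genotypes: the tested difference was positive in 309 genes and negative in 405. Of 81 genes named in the text and checked for it, 29 were called in opposite directions in MB131 and without CsChrimson, on top of a called difference. Over all called genes, this held for 25 of the 309 and 53 of the 405. Many genes were named for a small p or a large interaction, so the 29 are no measure of all called genes.

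Of these 29, 9 rose in MB131 and fell without CsChrimson. The yolk genes Yp1 (1.18) and Yp3 (1.19) and the antisense CR45601 (1.14) had near-equal log2 differences, and Yp2, whose response without CsChrimson was not called, is not among them. Gnmt (1.45), Tsf1 (0.77) and Sodh-1 (0.93) are metabolic genes. Obp56d (0.80), Def (2.01) and CG9759 (2.77) complete the set.

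The other 20 fell in MB131 and rose without CsChrimson. Cuticle genes were Cpr100A (-1.71), Cpr97Ea (-3.26), Ccp84Ab (-2.10) and Ccp84Ag (-1.63), with e at -0.68 and Jhe at -2.17. The genes CG8736 (-2.78), CG13043 (-5.07), CG13722 (-1.60) and CG8147 (-2.54) had differences as large. Of neuronal genes, Dop1R2 (-0.48), Dop1R1 (-0.47), Dop2R (-0.41), DAT (-0.53) and sNPF (-0.44) belong to amine and peptide signalling. Pka-C1 (-0.32) and Pka-R2 (-0.31) belong to protein kinase A, and Rdl (-0.38) and nAChRalpha6 (-0.35) to transmitter receptors. The last was roX1 (-0.51). The values of single genes were not screened for outlying libraries, since each group has 3.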

How the results depend on the processing

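The counts of 309 positive and 405 negative genes stayed within 1.5 times under every alternative run: 329 and 397 with relative log expression factors, 292 and 477 with no TMM factors, 352 and 373 with no low-count filter, 381 and 381 with a minimum count of 50, 253 and 375 with the 12 libraries alone and 379 and 441 with DESeq2, which gave no adjusted p for 1111 genes. Leaving out a library gave 259 to 356 positive and 343 to 440 negative genes, both highest without naive replicate 1 lacking CsChrimson. The median of all genes moved by under 0.1 with every scaling.

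Replicates with the same number did not deviate together across all genes (18 correlations from -0.05 to 0.02). A shared day or handling that acts on few genes would not show in these correlations, and the labels name none. With the replicate number as a block the counts were 316 and 406.

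Of 122 genes checked, 120 to 122 under each alternative, the interaction changed sign in Hr38 alone, which was never called: 0.012 without naive MB131 replicate 1, 0.063 without activated MB131 replicate 3 and 0.038 without activated replicate 1 lacking CsChrimson, in a range from -0.072 to 0.063. Calls were lost in 2 to 10 genes per alternative setting and in 5 to 15 per library left out, and the cause was not tested. A call was gained in Droj2 alone, with DESeq2 (adjusted p = 0.0414).

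Depth limits the low genes: the interactions of PGRP-SC2 and CG13044 rest on under 1 CPM in activated MB131 flies, and that of CG13043 on values near 1 CPM there. Kdm4B stands near 1 CPM and overlaps CG17724 on the same strand. What part depth and overlap have in its low count was not tested. Replication of 3 libraries per group, an unnamed line without CsChrimson, and unrecorded sex and hour of collection limit every comparison.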

Other observations

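Of 19 eye pigment genes 2 had a positive interaction and 2 a negative one, where 2.70% and 3.53% of all genes did. The positive ones were in tryptophan and purine metabolism, v (vermilion, tryptophan oxygenase) at 0.77 ± 0.15 and ry (rosy, xanthine dehydrogenase) at 0.38 ± 0.12. The call of ry was lost without any of 9 libraries left out singly (edgeR adjusted p = 0.0582 to 0.126). The negative ones were kar (karmoisin, a transporter-like gene) at -0.36 ± 0.06 and Pu (GTP cyclohydrolase of pteridine synthesis) at -0.27 ± 0.06, both of which fell in both genotypes. Dsk, the precursor of the satiety peptide drosulfakinin, had 0.51 ± 0.13, the single positive call among 38 neuropeptide genes. Among the glia markers, Mdr65, an export pump of the blood-brain barrier, had 0.38 ± 0.09, and nrv2, a sodium pump subunit, -0.28 ± 0.06. Act87E, an actin of muscle, had -0.40 ± 0.09. Of 17 JNK pathway genes 1 was positive, of 18 insulin and starvation genes 2 were negative and of 55 chemoreceptor genes 1 was negative. These were Mmp1, Thor and Sesn, and Ir68a, named after their values were seen, and the calls of Mmp1, Thor and Sesn were lost without any of 3, 5 and 6 libraries.

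By chromosome arm, negative calls made up 4.42% of tested genes on 3R, 3.90% on 3L and 3.02% to 3.06% on X, 2L and 2R, while positive calls made up 2.50% to 2.96% on these 5 arms. The small chromosome 4 had 6 positive and 4 negative calls among 101 genes. These shares were not tested.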
